A study of Mus musculus with 9 samples.

Results

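The genes described here encode the proteins of the cytoplasmic ribosome, and they were picked by name. A gene belongs to the family if its symbol is Rps or Rpl followed by a number (with one of the usual suffixes a, x, y or l), or is Rplp0, Rplp1, Rplp2 or Rpsa, so that symbols ending in -ps, which mark named pseudogenes, stay out. Of the 54146 genes with deposited expression values 87 met this rule, 36 of the small subunit and 51 of the large. By the GENCODE M21 annotation of GRCm38, 83 of them are protein-coding, and Rps12l1, Rps3a2, Rps3a3 and Rps4l are pseudogenes that carry no -ps ending.

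RNA sequencing had been carried out on colonic mucosa of C57BL/6J mice at 15 wk of age to ask which genes differ when silencing of p16 is added to an Apc mutation. All 9 mice carried ApcMin/+, a truncating Apc mutation on a single allele that gives rise to intestinal tumors. In 4 of them both p16 alleles also carried p16cis, an inserted element that draws DNA methylation onto the p16 promoter, and the other 5 had the ApcMin/+ genotype alone. They are called p16cis/cis mice and ApcMin/+ mice below. The inserted element is carried by every tissue and not only by the gut, the methylation builds up with age, and the study's methods describe the starting material as crypts, the epithelial pockets of the colon.

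Ribosomal proteins sit on the ribosomal RNAs of the small subunit, which reads the mRNA, and of the large subunit, which joins amino acids and passes the new chain out through a tunnel. Nearly all of them are needed in equal numbers, and their mRNAs start with a run of pyrimidines (C and U) through which growth signals such as mTOR set how much of them is translated. In the colon the ribosome supply is largest in the dividing cells low in the crypt. The genes have also been copied back into the genome many times as processed pseudogenes, and a short read from such a gene often matches several places.

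Each deposited value is a normalized count, that is, a read count divided by the size factor of its library, and a level below means this value. The libraries held between 13523500 and 17885918 reads on genes, and mitochondrially encoded genes took 8.74% to 15.6% of them in ApcMin/+ mice and 19.3% to 29.8% in p16cis/cis mice, without overlap. Cdkn2a, the gene of p16, was listed at 0 in all 9 libraries, which together held 140908881 reads, so its silencing could not be checked in these files. The epithelial markers (Epcam, Cdh1, the keratins and others) summed to between 274154 and 433525, against 117 to 751 for the markers of smooth muscle and stroma. The libraries are of bulk mucosa, in which fewer cells of a type and less RNA per cell cannot be told apart.

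Many of the ribosomal protein genes were higher in p16cis/cis mice. Of the 87 genes 79 passed the filter on low values (at least 10 in at least 4 mice), 33 of the small and 46 of the large subunit, and 30 of these 79 (38%) were called higher in p16cis/cis mice at an adjusted p-value under 0.05 with limma, against 8.14% of all 14410 genes tested. For the 79 genes the log2 fold change had a median of 0.40, which is 1.32-fold, and over the 14410 genes a median of -0.00. None of the 79 was called lower, against 8.75% of all genes tested. At an unadjusted p-value under 0.05 there were 37 higher and 1 lower (Rpl22l1), and DESeq2 on the recovered reads also called 0 lower. Since the family was put forward with this comparison already known, its fold changes, calls and counts are given as a description.

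The subunits were counted apart, and the difference between them was not tested. In the small subunit 12 of 33 genes (36.4%) were called higher with a median log2 fold change of 0.36, and in the large subunit 18 of 46 (39.1%) with a median of 0.44. Corrected for GC content and transcript length, the medians were 0.17 and 0.34. The fold change was positive in 63 of the 79 genes (49.6% of all genes tested were positive) and ranged from -1.22 for Rps16 to 2.36 for Rpl13. Only 9 genes passed both the test and a fold change over 2 (1.83% of all genes tested did so upward and 1.64% downward, against 0 downward here), namely Rpl13, Rpl19, Rpsa, Rpl11, Rpl39, Rps4l, Rpl35, Rpl37a and Rps10. The family therefore spans strongly raised genes, a broad middle of modest differences and a few with negative values, as the plot of fold changes by subunit shows.

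Among the large subunit genes Rpl13 stood highest, at 370.5, 279.5, 388, 2005 and 211 in ApcMin/+ replicates 1 to 5 and 1650, 2348, 2702 and 2604 in p16cis/cis replicates 1 to 4. Every ApcMin/+ mouse except replicate 4 was far below the p16cis/cis mice, and replicate 4 lay within their range. The log2 fold change of Rpl13 was 2.36 ± 0.51 (SE). Rpl19, a protein that reaches from the tunnel exit to the contact with the small subunit, was at 20.1, 19, 20.5, 66.1 and 11.4 against 68.2, 116, 91.7 and 108. The genotypes did not overlap, but only the step from 66.1 to 68.2 separated them. The fitted fold change of Rpl19 was 4.01, with a standard error of 0.42 on the log2 scale. Rpl11, which binds the 5S ribosomal RNA together with Rpl5 and restrains Mdm2 when ribosome assembly fails, was at 68.1, 72.3, 58.5, 155 and 57.9 against 179, 220.1, 269 and 285, again without overlap and with ApcMin/+ replicate 4 nearest to the p16cis/cis mice (log2 fold change 1.61 ± 0.28, SE).

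Rpsa, the small subunit protein at the mRNA exit that is also known as the laminin receptor, showed the same arrangement of mice. Its levels were 79.2, 83.7, 101, 343 and 97.6 in ApcMin/+ mice and 302, 489.7, 599.6 and 549.9 in p16cis/cis mice. Here ApcMin/+ replicate 4 was above the lowest p16cis/cis mouse, and the log2 fold change was 1.99 ± 0.38 (SE). Rps10 was at 635, 659, 682, 1488 and 469.9 against 1104, 1552, 1678 and 1565, with ApcMin/+ replicate 4 inside the p16cis/cis range and the others below it (1.01 ± 0.27, SE). Rps4l, a transcribed pseudogene related to Rps4x, was at 175, 107, 165, 308 and 131 against 534, 432, 239 and 282. The pair Rps10 and Rps4l passed the 2-fold limit only narrowly, with fold changes of 2.01 and 2.13.

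Other genes differed less but split the genotypes completely. Rpl13a, which besides its place in the ribosome blocks translation of certain inflammatory mRNAs after IFN-γ, was at 493, 389.8, 433, 486 and 395.01 in ApcMin/+ mice and 741, 1010, 793 and 865 in p16cis/cis mice. All 5 ApcMin/+ mice lay close together and well below the 4 others, and the log2 fold change was 0.95 ± 0.12 (SE). Rps19, the gene most often mutated in Diamond-Blackfan anemia, was at 2049, 2004, 2422, 3210 and 2109 against 3321, 3994, 4541 and 3769 (0.74 ± 0.15, SE). Rpl41, the shortest ribosomal protein, was at 6471, 4997, 5431, 5437 and 4338 against 6771, 9242, 10323 and 8127 (0.69 ± 0.15, SE). In all, 15 of the 79 genes (19%) were higher in every p16cis/cis mouse than in any ApcMin/+ mouse, against 7.24% of all genes tested, 4 of them in the small subunit (Rps19, Rps26, Rps27l and Rps3a1) and 11 in the large. The reverse, every p16cis/cis mouse below every ApcMin/+ mouse, was found for 0 of the 79 and for 8.95% of all genes tested.

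**Figure D1:**
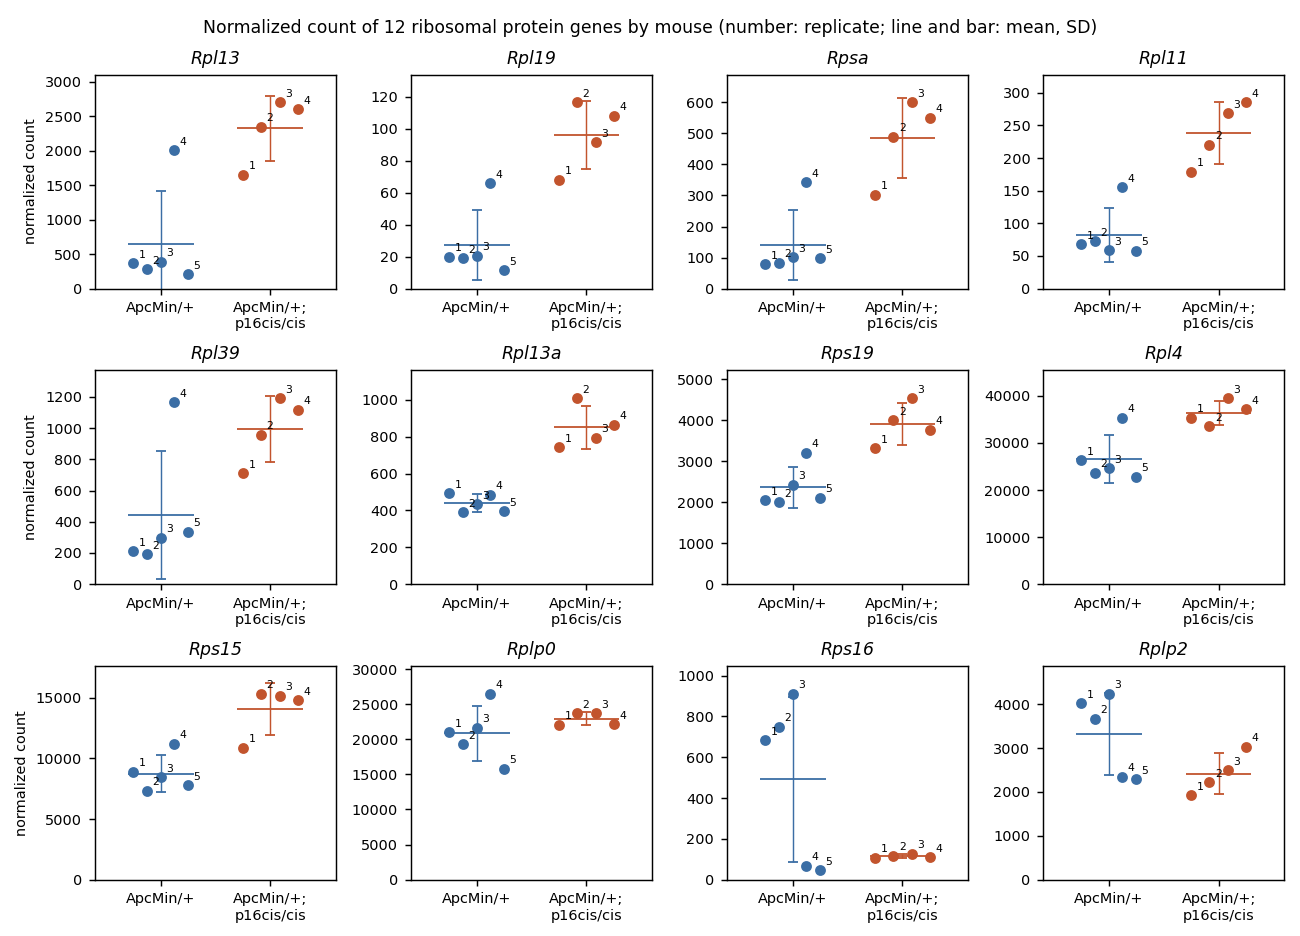
Normalized counts (y axes, from 0) of 12 ribosomal protein genes in each of 5 ApcMin/+ mice (blue) and 4 p16cis/cis mice (orange). Points are mice with their replicate number, lines are group means and bars are 1 SD (cut off at 0 for Rpl13). In Rpl13, Rpl19, Rpsa, Rpl11 and Rpl39 ApcMin/+ replicate 4 stands apart from the other ApcMin/+ mice toward the p16cis/cis mice, in Rpl13a no mouse does, and in Rps16 the ApcMin/+ mice split into replicates 1 to 3 and replicates 4 and 5.

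Several of the genes with the lowest fold changes shared an arrangement of the mice, in that ApcMin/+ replicates 1 to 3 were above every p16cis/cis mouse and replicate 4 was not. Rps16, Rplp2, Rpl38, Rps25, Rps7, Rpl30, Rpl22l1, Rps29 and Rpl36a had it, and they were singled out after their values were seen. Rps16, a small subunit protein near the decoding site, was at 684, 749, 912, 68.6 and 45.4 in ApcMin/+ mice and at 107, 118, 128 and 111 in p16cis/cis mice. Replicates 1 to 3 of ApcMin/+ were thus several times above every p16cis/cis mouse while replicates 4 and 5 were below all of them, and the log2 fold change of -1.22 ± 0.81 (SE) was not called. Rplp2 was at 4019, 3665, 4243, 2344 and 2295 against 1924, 2224, 2488 and 3030 (-0.43 ± 0.21, SE). Its ApcMin/+ mice also split into replicates 1 to 3 and replicates 4 and 5, but here replicates 4 and 5 lay within the p16cis/cis range. Rpl38, known for its part in the translation of Hox mRNAs, was at 458, 425, 489.7, 83.9 and 299.7 against 263, 252, 289 and 208. Replicate 4 of ApcMin/+ was here the lowest of all 9 mice, and without it Rpl38 was called lower in p16cis/cis mice (log2 fold change -0.71, limma adjusted p = 0.012), against -0.25 ± 0.43 (SE) with all mice.

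Seen mouse by mouse, the family set apart 2 of the ApcMin/+ libraries in opposite directions. The median deviation of the 79 genes from their means over all mice was -0.12, -0.21, -0.12, 0.08 and -0.47 on the log2 scale in ApcMin/+ replicates 1 to 5 and 0.03, 0.29, 0.23 and 0.35 in p16cis/cis replicates 1 to 4, while that of all genes tested stayed between -0.01 and 0.02. The genotypes thus overlapped by ApcMin/+ replicate 4 and p16cis/cis replicate 1. Of the 9 mice ApcMin/+ replicate 5 was the lowest in 47 of the 79 genes. Among the ApcMin/+ mice replicate 4 was the highest in 45 of the 79 genes and in 21 of the 30 called higher. Leaving replicate 4 out raised the genes without overlap from 15 to 38 (48.1%, against 12.7% of all genes tested), and the genes called higher from 30 to 37. Leaving out p16cis/cis replicate 2, p16cis/cis replicate 4 or ApcMin/+ replicate 3 lowered the genes called higher to 14, 15 and 19. The calls over all genes, in either direction, moved the same way, from 2434 to 3488 without ApcMin/+ replicate 4 and to 1257, 1183 and 1287 without the other 3 mice in turn.

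As a share of all reads the difference was small. The 87 genes together took 1.24% ± 0.155 (SD, n = 5) of the reads on genes with ApcMin/+ alone and 1.38% ± 0.0261 (SD, n = 4) with p16cis/cis, a ratio of 1.11 of the group means. The single mice were at 1.21%, 1.23%, 1.33%, 1.43% and 1.02% against 1.38%, 1.36%, 1.42% and 1.37%, so that ApcMin/+ replicate 4 was the highest of all 9. With mitochondrially encoded genes left out of the total, the shares were 1.41% ± 0.155 (SD, n = 5) and 1.83% ± 0.0936 (SD, n = 4), the ratio was 1.29, and the genotypes no longer overlapped. Both subunits took part, at 0.619% and 0.832% of these reads for the small and 0.794% and 0.998% for the large. The share rests on few genes, since 5 of them, Rpl4, Rplp0, Rps3 and Rpl8 included, together held 41.7% of the family's reads, and these 4 were not called.

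**Figure D2:**
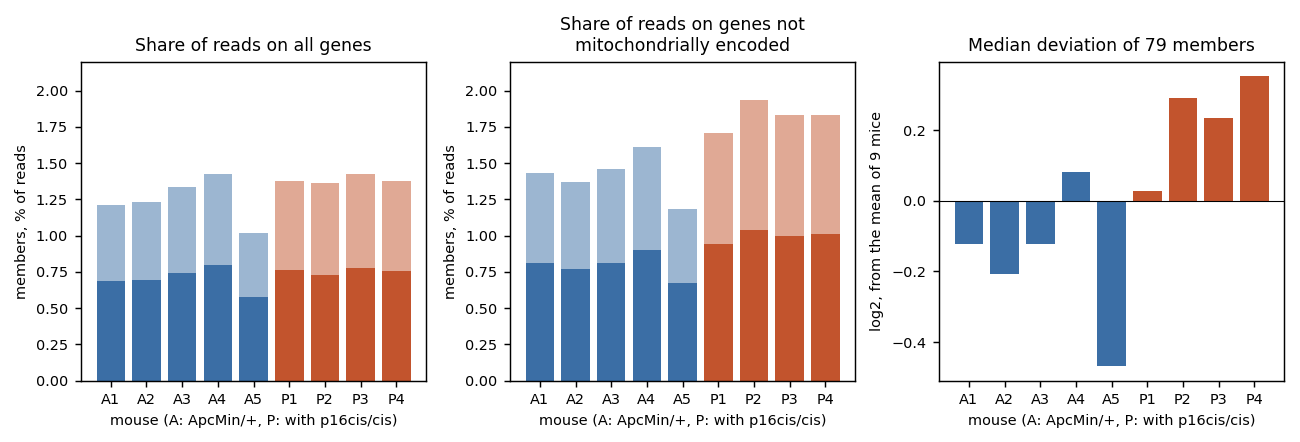
Share of reads on the 87 ribosomal protein genes per mouse (left, of reads on all genes; middle, of reads on genes that are not mitochondrially encoded; dark bars large subunit, light bars on top small subunit) and median log2 deviation of the 79 tested genes from their means over the 9 mice (right). Blue bars are ApcMin/+ replicates 1 to 5 and orange bars p16cis/cis replicates 1 to 4. The groups overlap on the left by ApcMin/+ replicate 4 at 1.43% and no longer do in the middle.

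Among the most abundant members by level per kb of transcript were Rplp0 (25482), Rplp1 (22396), Rps15 (20693) and Rpl4 (20118), each a mean over the 9 mice. Rps15, at the decoding site, was called higher at 8914, 7331, 8439, 11195 and 7781 in ApcMin/+ mice and 10861, 15340, 15177 and 14786 in p16cis/cis mice (0.69 ± 0.15, SE). The 4 p16cis/cis mice overlapped with ApcMin/+ replicate 4 and no other. Rpl4, whose loop lines the exit tunnel, was at 26307, 23721, 24679, 35371 and 22823 against 35377, 33501, 39552 and 37150 (0.47 ± 0.16, SE) and was not called. At the other end the lowest tested genes per kb were Rps6 (30.2), Rps23 (56.6), Rpl5 (64.4), Rps29 (75.5) and Rpl19 (77.9), although the ribosome holds each of these proteins once.

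Of the 5 groups by role, that around the tunnel exit had the largest part of its genes called. Of the 7 listed (Rpl17, Rpl19, Rpl23a, Rpl26, Rpl31, Rpl35 and Rpl39) Rpl23a lay under the filter, and 5 of the other 6 were called higher. Of all 79 genes 38% were called higher, and of all genes tested 8.14%. The same shares stand beside the counts of the other groups below, which have 2 to 6 tested genes each. No group was tested against the family. Rpl26, which also binds the Trp53 mRNA, was at 1843, 1571, 1993, 3418 and 1497 in ApcMin/+ mice and 2874, 4210, 3806 and 4277 in p16cis/cis mice (0.93 ± 0.22, SE). Rpl35, which with Rpl23a, Rpl17 and others frames the exit, was at 627, 607, 655, 1383 and 402 against 1152, 1656, 1495 and 1468. Both kept ApcMin/+ replicate 4 within the p16cis/cis range and the other ApcMin/+ mice below it. Rpl39, a very short protein in the tunnel wall, was at 212, 193, 298, 1166 and 336 against 712, 959, 1193 and 1117, a fitted fold change of 2.84. Rpl31 was at 91.5, 101, 116, 103 and 81.7 against 135, 152, 152 and 202, without overlap and with no ApcMin/+ mouse apart from the rest. Rpl17 was not called (0.52 ± 0.32, SE).

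In the stalk, the arm of the large subunit that calls in the translation factors, 1 of 4 genes was called. It was Rpl12 at the base of the stalk, at 241, 238, 240.0, 211 and 222 in ApcMin/+ mice and 277, 346, 322 and 404 in p16cis/cis mice (0.54 ± 0.13, SE). The stalk proteins themselves were not called, with log2 fold changes of 0.16 ± 0.15 for Rplp0, 0.28 ± 0.16 for Rplp1 and -0.43 ± 0.21 (SE) for Rplp2. In the 5S particle Rpl11 was called, as given above, and its partner Rpl5 was at 98.2, 125, 91.7, 66.1 and 96.5 against 79.6, 100.5, 54.1 and 124 (-0.13 ± 0.26, SE), with the genotypes mixed.

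Along the path of the mRNA on the small subunit 2 of 5 genes were called, Rpsa and Rps26. Rps26, at the exit side, was at 9588, 7635, 8402, 8453 and 6367 in ApcMin/+ mice and 11178, 11123, 15362 and 11229 in p16cis/cis mice, without overlap (0.59 ± 0.15, SE). The entry side proteins Rps3 and Rps2 had log2 fold changes of 0.33 ± 0.14 and 0.30 ± 0.15 (SE), and Rps28 of 0.35 ± 0.30 (SE). Among the genes best known from signaling or disease, 2 of 6 were called, Rps19 and Rpl13a. Rps6, the substrate of the S6 kinases, was at 23.4, 28.5, 21.5, 16.5 and 18.2 against 26.5, 39.9, 33.1 and 31.3 (0.58 ± 0.28, SE) and was not called. Rps14, linked to the 5q- syndrome, had 0.57 ± 0.23, Rps27a, made as a fusion with ubiquitin, 0.27 ± 0.22, and Rps24 -0.04 ± 0.17 (log2 fold change and SE).

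Some ribosomal protein genes have paralogs used in other tissues or conditions. Rpl10l and Rpl39l, known from the male germ line, were listed at 0 in all 9 mice, and Rpl3l, the form of heart and skeletal muscle, was at 0 to 4.51. Rps27l, a p53 target, was counted far above its parent Rps27, and its level per kb was 1074% of that of Rps27. The share of 50-base stretches found in no other annotated gene, described below, was 83.8% for Rps27l and 53.8% for Rps27. How far this share bears on the 2 levels was not tested. Rps27l was at 550.1, 681, 721, 895 and 722 in ApcMin/+ mice and 914, 1278, 1097 and 1087 in p16cis/cis mice, without overlap (0.62 ± 0.14, SE), whereas Rps27 had 0.38 ± 0.33 (SE) and was not called. The pair Rpl22 and Rpl22l1 leaned in opposite directions, and Rpl22 protein is known to hold down Rpl22l1. Rpl22 was at 4353, 4099, 4350, 5597 and 3705 against 4620, 5642, 5697 and 6188, and Rpl22l1 at 286, 313, 365, 254 and 259 against 208, 281, 188 and 204. Neither was called alone. The log2 ratio of Rpl22l1 to Rpl22 averaged -3.90 ± 0.34 (SD, n = 5) with the ApcMin/+ genotype alone and -4.66 ± 0.31 (SD, n = 4) with p16cis/cis, and it overlapped between the genotypes by ApcMin/+ replicate 4 at -4.46 and p16cis/cis replicate 2 at -4.32.

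The level of a member went with how much of its sequence is its own. For each gene the share of 50-base stretches of its transcripts found in no other annotated gene was counted. It ranged widely, with 4.91% for Rpl35 and 97.2% for Rps3 near the ends. Over the 79 genes Spearman's rho between this share and the level per kb was 0.416, given as a description since the genes share libraries. The 17 genes with a share of 80% or more had a median level per kb of 3519, against 1258 for the 47 genes between 30% and 80% and 1109 for the 15 below 30%. Of the 5 lowest per kb Rps6, Rpl5 and Rpl19 had 15.4%, 14.6% and 26.1% of their own, whereas Rps23 and Rps29 had 48.3% and 64.2%, and Rpl23a and Rpl24, which lay under the filter, had 14.3% and 18.3%. The fold change between the genotypes showed no such trend, with a rho of 0.0459. Rpl13, Rpl19, Rpsa and Rpl11, with the largest fold changes, had shares of 19.7%, 26.1%, 66.7% and 46.0%.

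**Figure D3:**
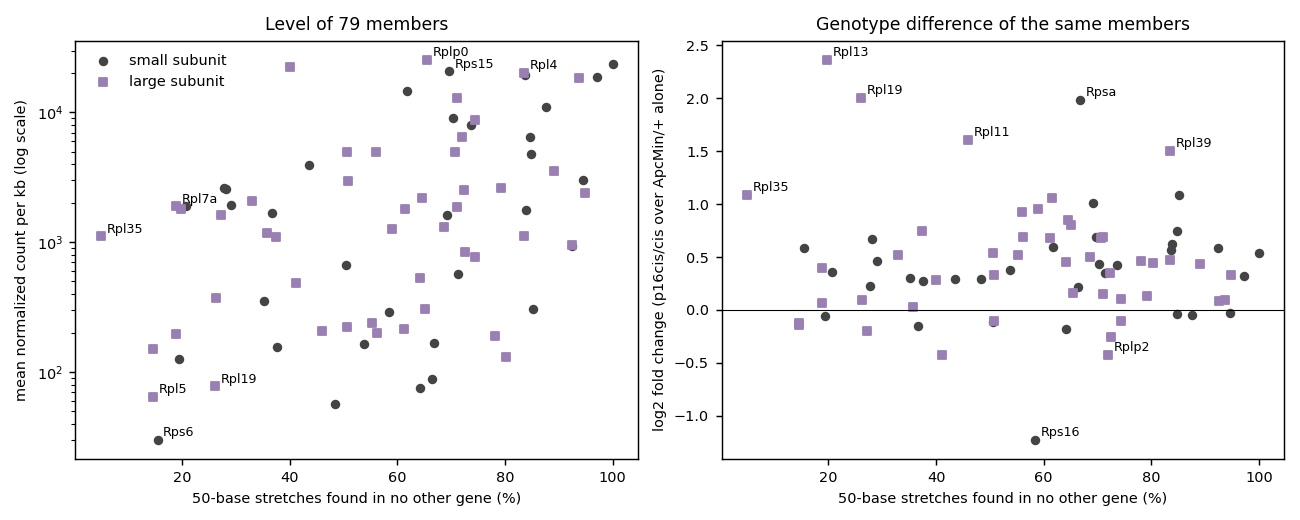
Share of 50-base stretches found in no other gene (x axes, percent) against the mean normalized count per kb of transcript over 9 mice (left, log scale) and against the log2 fold change of p16cis/cis over ApcMin/+ mice (right) for the 79 tested genes, with circles for the small and squares for the large subunit. Levels climb toward the right (rho 0.416) and fold changes do not (rho 0.0459).

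Reads were also counted on copies of the family. Of the 84 members with a pseudogene row that shares a 50-base stretch, 8 were below their most abundant copy. These include the pseudogenes Rps12l1, Rps3a2 and Rps3a3, with means of 0, 0.846 and 4.54 over the 9 mice. The others are Rpl11, Rpl13a, Rpl28, Rpl31 and Rpl36a. Rpl11 had a mean of 152 and its copy 168, and Rpl13a 623 and its copy 694. The Rpl11 copy was at 36.8, 41.8, 58.5, 164 and 1.14 in ApcMin/+ mice and 189, 276, 442 and 302 in p16cis/cis mice. The Rpl13a copy was at 93.7, 91.3, 97.6, 895 and 263 against 770, 1198, 1776 and 1057. For Rpl31 the most abundant copy, Rpl31-ps8, was at 17.9, 13.3, 6.83, 596 and 45.4 in ApcMin/+ mice and at 556, 705, 1190 and 768 in p16cis/cis mice. Rpl28-ps1 was at 11.2, 8.56, 1.95, 486 and 21.6 against 789, 1058, 1491 and 888. In both copies the other 4 ApcMin/+ mice were far below ApcMin/+ replicate 4 and the p16cis/cis mice. Replicate 4 lay within the p16cis/cis range in Rpl31-ps8 and below it in Rpl28-ps1. Summing each member with all such copies gave 36 called higher of 84. The pseudogenes Rps12l1, Rps3a2 and Rps3a3 are among the 36 and passed the filter only through the reads of copies. A copy shared by several members was added to each of them, so this count is not comparable with 30 of 79. The log2 fold changes were 2.41 for Rpl31 (0.69 alone), 2.43 for Rpl28 (0.80 alone) and 1.78 for Rpl36a, which alone had -0.14 ± 0.27 (SE). Named pseudogenes of the family, 253 rows in all, took 0.00871% ± 0.00524 (SD, n = 5) and 0.0258% ± 0.00629 (SD, n = 4) of reads. Whether reads of the genes were placed on copies or the reverse was not tested.

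Some, but not all, of these genes had a run of pyrimidines near their annotated start. The run began at position -16 from this start in Rpl13, -18 in Rpl4 and 14 in Rpl11. Such a run therefore need not be the first bases of the mRNA. RefSeq promoters of GRCm38.p6, from 250 bases before to 50 after a start, matched 63 of the 87 members. The 30 bases below are shown for genes named above, 5′ to 3′ on the strand of the gene, with the longest run of C and T near the start in capitals. The first 5 belong to genes called higher with a long run, the next 3 to genes not called with a long run, and the last 3 to genes called higher with a short one.
Rpl13 (chr8:123102324-123102353, plus strand): cgtgacgtcaCTTCCCTTTCgcctgatttt
Rpl11 (chr4:136053358-136053387, minus strand): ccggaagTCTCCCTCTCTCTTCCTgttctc
Rpl35 (chr2:39005115-39005144, minus strand): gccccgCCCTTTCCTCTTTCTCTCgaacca
Rps10 (chr17:27635227-27635256, minus strand): ccgcgcacgCCCCTTCCTTTCCagcctccg
Rpl13a (chr7:45128722-45128751, minus strand): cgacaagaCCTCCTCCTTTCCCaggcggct
Rpl4 (chr9:64173361-64173390, plus strand): gtgacaagTCTTTCCTTTTCCTgtgggagc
Rps6 (chr4:86857349-86857378, minus strand): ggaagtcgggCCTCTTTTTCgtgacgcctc
Rplp2 (chr7:141447636-141447665, plus strand): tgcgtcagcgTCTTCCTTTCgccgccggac
Rpl41 (chr10:128549156-128549185, minus strand): gacacacgggccggCTCggaagtgacgaca
Rpsa (chr9:120127774-120127803, plus strand): tccggccgcccgTCCTTTCgcgctacccgg
Rps15 (chr10:80292400-80292429, plus strand): ggtggaggcgggCCCTCCCggcagagctcg

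In the genes shown the run was 10 to 18 bases long in the first 5, 10 to 14 in the next 3 and 3 to 7 in the last 3. A run of C or T of at least 8 bases, on the strand of the gene and between 20 bases before and 30 after a start, was found in 34 of the 63 members (54.0%) and in 21.5% of 27025 genes with a promoter sequence. It was present in 14 of 23 members called higher (60.9%) and in 20 of 36 tested and not called (55.6%). On either strand of the whole promoter the letters CTTCCG, which hold the core bound by ETS factors, were found in 42 members (66.7%, against 18.8% of all genes), and the E-box CACGTG bound by Myc in 6 (9.52%, against 8.09%). A match of letters does not show a site in use.

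A further 126 tested genes came from lists around translation. The lists were ribosome assembly, initiation, elongation and their control, ribosomal proteins outside the name rule, and other mRNAs with a pyrimidine start. Of the 126 genes 18 (14.3%) were called higher and 5 (3.97%) lower, against 8.14% and 8.75% of all genes tested. Among the ribosomal proteins outside the name rule Rpl36al was called higher, at 112 ± 32.3 (SD, n = 5) and 237 ± 60.4 (SD, n = 4; log2 fold change 1.07, limma adjusted p = 0.0119), and Fau, made as a fusion protein, had a log2 fold change of -0.03 and was not called. Of the elongation factors only Eef1d was called (0.43), and Eef1a1 and Eef2, which carry the same pyrimidine start as the ribosomal proteins, had -0.11 and -0.31. Of 20 tested mRNAs with such a start outside the family, Naca and Eef1d were called higher and Eif4b lower. Initiation factors were called in both directions, with Eif1, Eif3i, Eif3k and Eif4a1 higher and Eif3a, Eif4a2, Eif4b and Eif5 lower, 12.9% of 31 each way and near the share over all genes.

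In ribosome assembly 7 of 62 genes (11.3%) were called higher, near the share over all genes, and 1 lower. The larger differences were Utp20 (0.71), Ppan (0.69), Nhp2 (0.46) and Nop16 (0.45), all log2 fold changes, and Ddx10 was lower by a log2 fold change of -0.45. Of 14 genes that control ribosome supply 4 were called higher and 0 lower, against 8.14% and 8.75% of all genes tested. Rps6kb2, an S6 kinase, was called higher at 507 ± 22.1 (SD, n = 5) and 1079 ± 194 (SD, n = 4; log2 fold change 1.07, limma adjusted p = 0.00155), with no overlap. Myc, which drives ribosome production, had 0.47 (adjusted p = 0.0259), Tsc2 0.38 and Mdm2 0.41, and these were called higher too. The other S6 kinase gene, Rps6kb1, had 0.01 and Mtor -0.08.

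Sex was not balanced, with 2 females among the 5 ApcMin/+ mice and 3 among the 4 p16cis/cis mice. In a fit with genotype and sex 0 of the 79 genes were called by sex, 0 had an unadjusted p-value under 0.05 and the smallest adjusted p-value was 0.992 with limma, against 0.0486% of all genes tested that were called, and edgeR also called 0. The X-linked Rps4x, Rpl10, Rpl39 and Rpl36a had log2 differences of male minus female of 0.17 ± 0.12, 0.11 ± 0.20, 0.14 ± 0.47 and -0.25 ± 0.30 (SE).

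Several measures of the libraries were set beside the family. The mitochondrial share was higher in every p16cis/cis mouse, as given above, and with this share as a covariate 0 of the 79 genes, and 0 of all genes tested, were called by limma, 6 and 798 of them at an unadjusted p-value under 0.05. The family's median log2 fold change was then 0.35. Mki67, a marker of dividing cells, was called higher, as 1 of 11 tested markers of crypt base and cycling cells, whose summed level was 7587 to 12881 in ApcMin/+ mice and 11675 to 15477 in p16cis/cis mice. Of 8 colonocyte markers Slc26a3 and Slc9a3 were called lower, with sums of 182002 to 313762 and 165641 to 185757. Markers of B and plasma cells were lower in sum (Jchain called, 1 of 9), at 4866 to 7486 against 3417 to 4600, and no marker of the lists used here was at 0 in all mice. Of the other markers Tspan8 (1 of 10, epithelium), Lyz2 (1 of 7, myeloid) and Col3a1 (1 of 9, stroma) were called lower, and 0 of 7 goblet cell and 0 of 8 T cell markers in either direction. Called or not, all 9 tested markers of smooth muscle and stroma had negative log2 fold changes (median -1.44). So did all 9 of B and plasma cells (median -1.55). The stroma markers summed to 172 to 751 in ApcMin/+ mice and 117 to 281 in p16cis/cis mice. For scale, 8.14% of all genes tested were called higher and 8.75% lower, and 1 called gene in a list of 7 to 11 is near those shares. Over all genes the fold change rose with GC content (rho 0.339) as it did within the family (rho 0.295), and after correcting each mouse for GC content and length of transcripts limma left 17 genes called higher, with Rpl22l1 and Rplp2 called lower and a median of 0.25. The part of each of these in the family's difference was not tested.

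Across 26 other settings of the analysis the number of genes called higher ran from 0 to 37, while the median of the family stayed above 0 in each. Of the named genes Rpl11, Rpl13a, Rpl19 and Rpsa were called in 25 of the 26, Rpl13 and Rps19 in 24, Rpl39 in 13 and Rpl3, at the peptidyl transferase center, in 10.

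**Figure D4:**
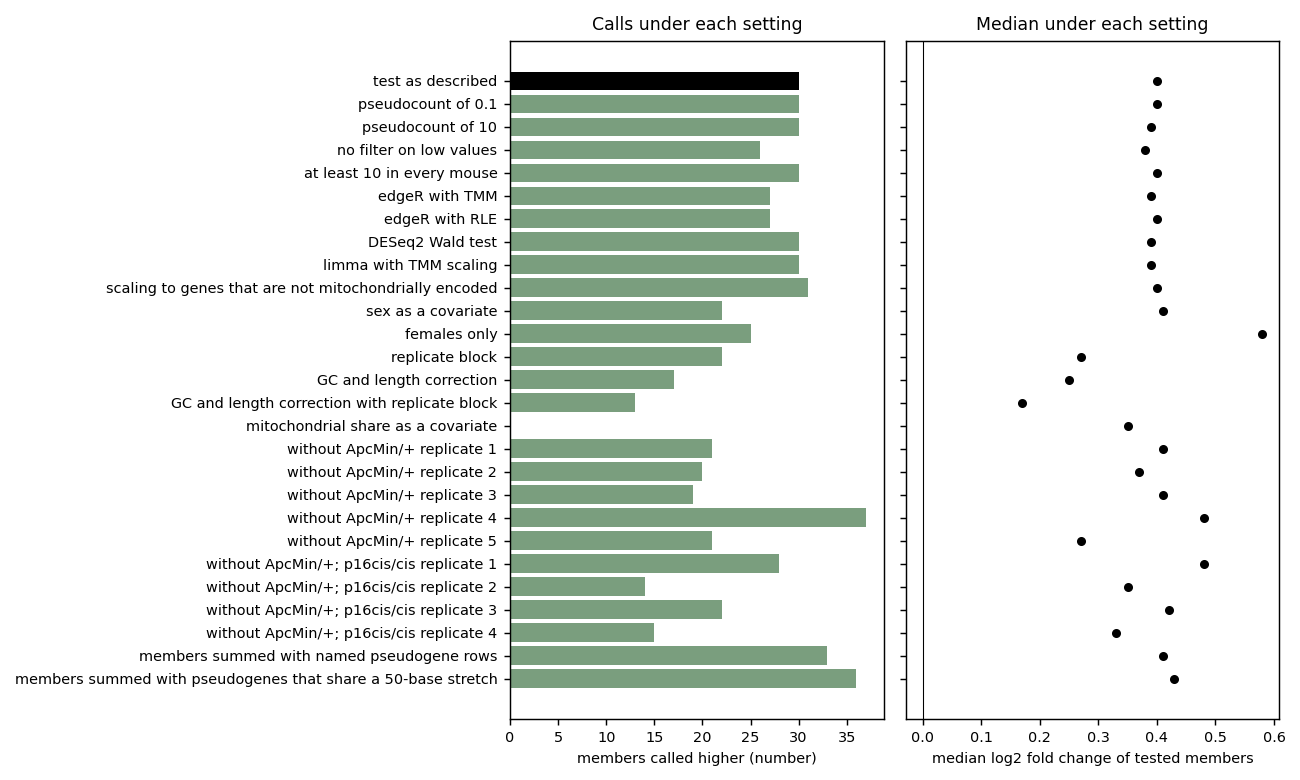
Number of ribosomal protein genes called higher in p16cis/cis mice (left, bars; black for the test as described) and median log2 fold change of the tested members (right, points) under the test as described and 26 other settings. Calls run from 0 with the mitochondrial share as a covariate to 37 without ApcMin/+ replicate 4, and every median lies right of 0.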

How the data were processed

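RNA from colonic crypts was sequenced by the authors on BGISEQ-500 (mRNA libraries), aligned with Bowtie2, quantified with RSEM and normalized with DESeq2. Genome build, annotation and versions are not given in the sources used here. The deposited values are normalized counts (a signal of reads divided by the library's size factor). Dividing each column by the value of 1 read gave whole reads for 100% of positive values, to within 0.01 reads.

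The test was limma 3.58.1 (R 4.3.3, trended variances) on log2(value + 1) of the 14410 genes that reached 10 in 4 or more mice, fitted on genotype alone, with Benjamini-Hochberg adjustment over all of them and calls at 0.05. It was tested on simulated data. Fold changes on this scale understate those of low genes. Alternatives included edgeR 4.0.16 and DESeq2 1.42.0 on recovered reads, covariates, corrections, each mouse left out, and members summed with pseudogenes (by a shared 50-base stretch, added after seeing the data). The members and lists were chosen with earlier results of these data known. Named genes are the 5 highest per kb and the 4 largest and 4 smallest fold changes in each subunit, those of role and paralog lists, and others seen in their values. Coordinates and gene types are GENCODE M21 (GRCm38), promoters RefSeq GRCm38.p6. Replicates are separate mice by their labels. Some items are not reported here.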

Additional observations from a re-analysis of the deposited data

Results flagged for a closer look

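The 98 groups of values examined share 9 libraries, so the 4.9 that chance gives for independent groups is only a rough guide. Of these groups 14 had a single mouse far from the rest of its group. In 11 of them this was ApcMin/+ replicate 4, above the other 4 ApcMin/+ mice, with levels of 2005 in Rpl13, 1166 in Rpl39, 343 in Rpsa, 66.1 in Rpl19, 155 in Rpl11, 1488 in Rps10, 1383 in Rpl35, 3418 in Rpl26, 2153 in Rpl3, 17580 in Rps14 and 35371 in Rpl4. In Rpl13 the other 4 ApcMin/+ mice lay between 211 and 388, and in Rpsa between 79.2 and 101. The other 3 were ApcMin/+ replicate 5 in Rpl6, at 1052 below 1549 to 1686, p16cis/cis replicate 1 in Rps15, at 10861 below 14786 to 15340, and p16cis/cis replicate 3 in Rps26, at 15362 above 11123 to 11229. The cause was not tested.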

How the results depend on the processing

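The median of the family was positive under every setting tried, and no named gene reversed after being called. The 30 genes called higher became 17 with GC content and length correction, 13 with this correction and the replicate block, 0 with the mitochondrial share as a covariate, 22 with the replicate block alone, and 14 to 37 with each mouse left out. The 0 called lower became 2 (Rpl22l1, Rplp2) with the GC and length correction, 1 (Rplp2) with this and the block, 1 (Rps16) with the block, and 0 to 1 (Rpl38) with a mouse left out. The 9 over 2-fold became 5 with edgeR (TMM or RLE), 4 with DESeq2, 5 with the block, 4 with the GC and length correction, 5 with both and 0 with the mitochondrial share. They became 18 with copies that share a 50-base stretch added, the pseudogenes Rps12l1, Rps3a2 and Rps3a3 among them. With a mouse left out they were 4 to 10 (4 without ApcMin/+ replicate 5 and without p16cis/cis replicate 2 or 4, and 5 without ApcMin/+ replicate 1, 2 or 3). The median of 0.40 became 0.58 in females only and 0.17 with GC correction and block, that of the small subunit (0.36) 0.60, and 0.17 with GC correction with or without the block, and that of the large subunit (0.44) 0.18 with both. With each mouse left out these medians ran from 0.27 to 0.48, 0.28 to 0.49 and 0.27 to 0.50. The ratio of read shares of 1.11 became 1.29 without mitochondrial genes in the total, and 1.06 to 1.16 with a mouse left out. The 18 other translation genes called higher became 0 with the mitochondrial share and 6 to 21 with a mouse left out (6 and 8 without p16cis/cis replicates 4 and 2, 9 and 10 without ApcMin/+ replicates 2 and 3), and the 5 lower became 0 with the mitochondrial share, 0 with the GC correction and 0 to 11 with a mouse left out (11 without ApcMin/+ replicate 4, 0 without p16cis/cis replicate 4). Genes called by sex stayed at 0. Same-numbered mice correlated at -0.175, 0.066, 0.0465 and 0.142 in their deviations from the group means, so the replicate numbers were not taken as pairs. The cause of these changes was not tested. Rpl3l and Rps3a2 were near 0, with 14 and 6 reads over all mice, and lay under the filter. Why they were low was not tested.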
